A study of Homo sapiens with 16 samples.

Results

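The comparison described here is that of Dox day 2 with vehicle day 2 in C4-2B/Rx2dox cells, 8 of the 16 arrays of the series. Its members were taken by sample label, 4 Dox-treated and 4 vehicle-treated cultures with 1 array each, and all genes with a named probe were kept, 16922 genes, each standing by its probe of highest mean signal. C4-2B is a castration-resistant human prostate cancer line derived from LNCaP. In the C4-2B/Rx2dox sub-line a lentiviral vector carries a Flag-tagged mouse Runx2 cDNA under a promoter that doxycycline (Dox) switches on. The Dox day 2 group received 250 ng/ml Dox for 48 h and the vehicle day 2 group received vehicle for 48 h, while the Dox day 1 and vehicle day 1 groups, of 4 cultures each, were harvested at 24 h. All 4 groups carry the Runx2 cassette and grew in the same serum-containing medium. Because no group without the cassette is among these arrays, an effect of Dox itself and an effect of the induced Runx2 cannot be told apart here.

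Runx2 is a Runt-domain transcription factor that binds DNA together with its partner CBFβ and is best known as the master regulator of osteoblast differentiation. It can activate or repress its target genes, and in osteoblasts it slows proliferation as the cells mature. In prostate cancer it has been studied for its links to invasion and to bone metastasis.

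The label was first checked against marker genes. Of the 13 listed markers of C4-2B and LNCaP cells 11 were measured, and all 11 were above background on day 2. Of these, KLK3, KLK2 and KRT8 were higher with Dox, FOLH1, TMPRSS2, STEAP2, HOXB13, TRPM8, SLC45A3 and SPDEF were lower, and KRT18 did not pass the test. The summed intensity of the 11 markers was 6675 to 7189 on the Dox arrays, against 10986 to 11781 on the vehicle arrays. Of markers of other cells, 1 of 3 basal, 2 of 9 stromal, 1 of 6 endothelial, 1 of 6 hematopoietic and 1 of 6 neuroendocrine genes were above background, and the defining markers PTPRC, CD3E, PECAM1, CDH5, CHGA and KRT5 were above background on 0 of the 8 arrays. COL1A1 was above background on 0 Dox and 3 vehicle arrays. Summed over their lists, basal markers gave 94.7 to 115 with Dox against 67.8 to 78.7 with vehicle, stromal markers 263 to 276 against 271 to 281, endothelial markers 165 to 190 against 219 to 238, neuroendocrine markers 188 to 209 against 209 to 248, and hematopoietic markers 193 to 980 against 159 to 1872. The last range is that of HBB, which varied between arrays of the same group. In such bulk RNA, fewer cells of a type and less RNA per cell cannot be told apart.

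The array's probe for human RUNX2 was above background on none of the 8 day 2 arrays, so it does not check the labels, and whether it hybridizes to the mouse cDNA was not tested. RUNX1 and RUNX3 were also above background on none of the 8. CBFB, which encodes the partner protein CBFβ, had log2 levels of 7.67, 7.51, 7.62 and 7.60 with Dox and 8.59, 8.56, 8.69 and 8.60 with vehicle. It fell by 1.01 on the log2 scale (standard error 0.053, adjusted p = 7.3e-11). The housekeeping genes GAPDH (log2 change 0.03, adjusted p = 0.82) and ACTB (0.07, adjusted p = 0.55) did not pass the test by their brightest probes, and a second GAPDH probe was lower by a small amount (log2 change -0.16, adjusted p = 0.029).

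The arrays of a group resembled each other closely. The median signal was 107 to 113 on the Dox arrays, against 108 to 111 on the vehicle arrays, and 40.4% to 42.2% of probes were above background on the Dox arrays, against 40.2% to 41.9% on the vehicle arrays. Detection p is the share of the 664 negative controls that outshone a probe, and a value under 0.01 was taken as above background. The median SD of a gene between the 4 cultures was 0.128 with Dox and 0.104 with vehicle on the log2 scale. Levels correlated at 0.994 to 0.995 between 2 Dox arrays and at 0.994 to 0.996 between 2 vehicle arrays, and at 0.969 to 0.972 between a Dox and a vehicle array. Replicate 1 stood apart in all 4 groups for a small set of genes. For 239 of 8577 genes it was the lowest array in every group, compared with 22, 17 and 37 genes for replicates 2, 3 and 4, and 55 of the 239 passed the day 2 test. TMEM17 and FKBP14 had the greatest gaps.

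With Dox for 48 h the level of many genes differed by a small amount and that of a smaller number by a large one. Of the 16922 genes, 2821 were higher with Dox (16.7%) and 2831 were lower (16.7%) at an adjusted p under 0.05 in limma's test. The 4 Dox arrays lay wholly above the 4 vehicle arrays in 2722 genes (16.1%) and wholly below them in 2719 (16.1%). The fitted change was at least 2-fold in 544 genes that were higher (3.21%) and 505 that were lower (2.98%). Of these, 78 and 37 were above background on no array of the dimmer group and had a bound on their fold, explained with the switched genes, of under 2-fold. Genes above background on all 4 arrays of at least 1 group numbered 8025, and 7793 genes were above background on none of the 8 arrays. Among the 8025, 2441 were higher (30.4%) and 2519 lower (31.4%), and 533 were at least 2-fold higher (6.64%) and 502 at least 2-fold lower (6.26%). Their median change was -0.01 on the log2 scale, and the median standard error of a change was 0.082, which gives a 95% interval of 0.17 to either side. The p-values measure the spread between the cultures of a group.

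**Figure D1:**
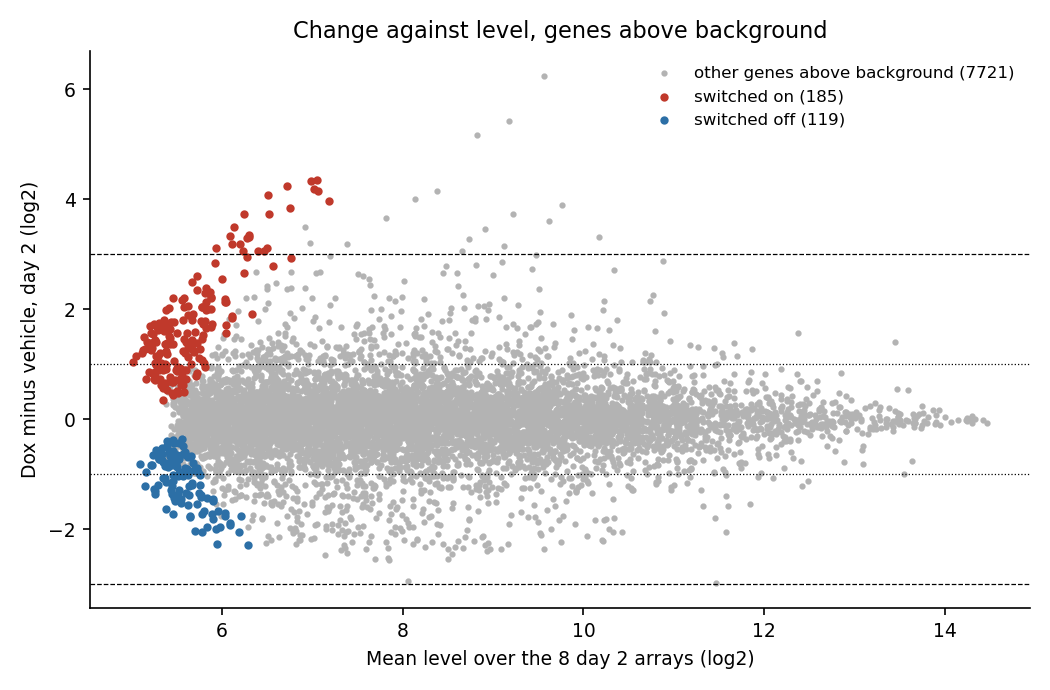
Change of each gene with Dox on day 2 (log2 of Dox over vehicle, vertical axis) against its mean normalized level on the 8 arrays (log2, horizontal axis), 1 point per gene above background on all 4 arrays of at least 1 group (8025 genes). Red points are the 185 genes above background on 4 Dox arrays and 0 vehicle arrays (switched on), blue points the 119 of the converse case (switched off) and gray points the others, with dotted lines at 2-fold and dashed lines at 8-fold. The 2441 genes that were higher and the 2519 that were lower spread about evenly around 0, and the rises reach 6.24 where the falls end at -2.96.

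The size of the changes was examined in the 7212 genes above background on all 8 arrays, where neither group is cut off by the background. Among these, 2129 were higher (29.5%) by a median of 1.41-fold and 2217 were lower (30.7%) by a median of 1.44-fold. The largest 10% of the changes began at 2.32-fold for the genes that were higher and at 2.50-fold for those that were lower. At least 2-fold changes were 362 upward (5.02%) and 400 downward (5.55%), and at least 4-fold changes were 56 upward and 70 downward. No fall reached 8-fold, while 14 rises did. The longest rise was that of PIP, which encodes a secreted protein of apocrine fluids and seminal plasma. PIP had 12.72, 12.70, 12.66 and 12.63 on the Dox arrays and 6.12, 6.50, 6.55 and 6.58 on the vehicle arrays, a 75.5-fold difference (log2 change 6.24, standard error 0.081, adjusted p = 3.4e-18). The deepest fall among all called genes was 7.80-fold, in GDF15, a stress-induced cytokine.

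The background sets how far a gene can be seen to fall, so both directions were also counted in the 3272 genes above background whose vehicle mean lay at least 3 log2 units (8-fold) above the lowest detected level. Of these 85, 6 and 1 rose at least 2-, 4- and 8-fold, and 242, 55 and 0 fell by as much. The large rises thus lay mostly in genes with a lower vehicle level, where less of a fall could be measured. A choice by the vehicle mean leaves more room for falls than for rises. Rises were therefore also counted in the 3274 genes whose Dox mean lay as far above the lowest detected level. Of these 229, 60 and 25 rose at least 2-, 4- and 8-fold, beside the 242, 55 and 0 falls. Among the 7212 genes above background on all 8 arrays, which leave out the switched genes described below, changes of at least 2-fold were most frequent at middle levels. Split by mean level into 3 bins of 2404 genes, 4.62%, 6.32% and 4.12% of genes from the dimmest to the brightest bin were at least 2-fold higher. At least 2-fold lower were 5.28%, 7.40% and 3.95%. The background correction affects fitted folds, so these shares hold for the main setting.

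**Figure D2:**
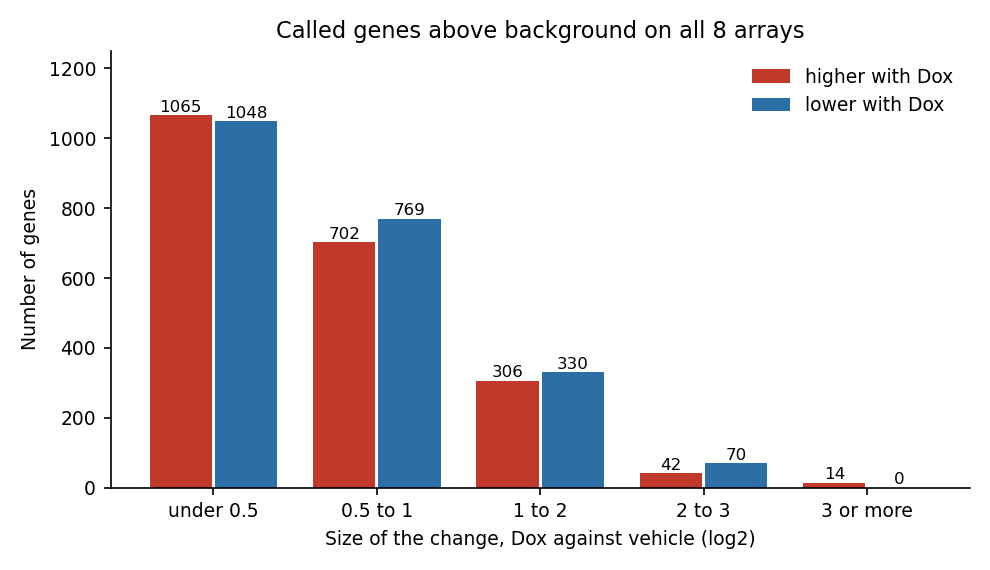
Number of genes by the size of their change (log2, Dox against vehicle, horizontal axis) among called genes above background on all 8 day 2 arrays, with the number above each bar. The bars of both directions are alike up to a change of 2, while past 3 there are 14 genes that were higher and 0 that were lower.

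Detection p-values allowed genes to be followed from below to above the background. A gene was taken as switched on where it was above background on 4 of 4 Dox arrays and 0 of 4 vehicle arrays, and as switched off in the converse case. Of the 16922 genes 185 were switched on (1.09%) and 119 switched off (0.703%). Just outside the rule were 53 genes above background on 4 Dox arrays and 1 vehicle array and 68 on 3 Dox arrays and 0 vehicle arrays, and 76 genes on 1 Dox array and 4 vehicle arrays and 56 on 0 Dox arrays and 3 vehicle arrays. Many of the switched genes only crossed the background by a little. Where a gene was above background in only 1 group, its fold is a bound. For it the gene's level on each array of the dimmer group was raised to the lowest level detected on that array, unless it lay above this, before the group means were compared. The bound was at least 2-fold for 69 of the 185 genes switched on and for 26 of the 119 switched off, at least 4-fold for 26 and for 0, and under 1.2-fold for 17 and for 20. Its median was 1.70-fold for genes switched on and 1.48-fold for genes switched off. The genes switched on reached a median level of 6.20 with Dox (5.52 to 9.23), and those switched off had a median level of 6.02 with vehicle (5.50 to 7.44). Over all genes above background on 8 arrays the median level was 8.18 with Dox and 8.21 with vehicle.

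The strongest of the genes switched on included several that are best known from liver and from secretions. The highest bound, at least 13.9-fold, was that of CST7, which encodes cystatin F, an inhibitor of lysosomal cysteine proteases. AGXT, a peroxisomal enzyme of the liver that detoxifies glyoxylate, had 9.25, 9.14, 9.10 and 9.16 with Dox and 5.06, 5.10, 5.25 and 5.41 with vehicle. It was at least 13.2-fold higher (adjusted p = 1.8e-15). CYP2E1, the cytochrome P450 that oxidizes ethanol, had 9.19, 9.07, 9.11 and 9.08 with Dox and 4.92, 4.87, 5.20 and 4.73 with vehicle, at least 12.8-fold higher (adjusted p = 3.5e-14). Both genes thus lay near 9.1 on all Dox arrays, above the median of detected genes. LINGO4, a leucine-rich repeat membrane protein, had 9.24, 9.16, 9.12 and 9.07 with Dox and 4.81, 4.77, 4.69 and 5.03 with vehicle, at least 13.1-fold higher (adjusted p = 3.7e-15). SCGB1C1, a small secreted protein of the secretoglobin family, had 8.96, 8.80, 8.93 and 8.66 with Dox and 4.5, 4.88, 4.46 and 4.54 with vehicle, at least 10.6-fold higher (adjusted p = 1.6e-14). In each of these genes the groups were separated by more than 3 log2 units with no overlap.

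Others of the 12 genes named for switching on act in membrane traffic, lipid transfer and detoxification. DENND2A and DENND2B, a pair of DENN-domain exchange factors for Rab GTPases, were at least 7.76-fold and 6.93-fold higher (adjusted p = 1.6e-15 and 1e-12). GSTA2, an alpha-class glutathione transferase, had 7.98, 7.91, 8.05 and 7.89 with Dox and 4.86, 4.40, 4.58 and 4.72 with vehicle, at least 5.75-fold higher (adjusted p = 4.2e-15). CETP, the plasma protein that exchanges cholesteryl esters between lipoproteins, had 8.01, 8.01, 7.84 and 7.83 with Dox and 4.45, 4.80, 4.48 and 4.80 with vehicle, at least 5.61-fold higher (adjusted p = 8.1e-13). The remaining genes were BPIFB4, of the BPI fold family (at least 6.39-fold), PLEKHS1, a pleckstrin homology domain protein (at least 5.78-fold), KRT80, a type II keratin (at least 5.62-fold), and GLDN, or gliomedin, known from nodes of Ranvier (at least 5.45-fold). All 12 had no overlap between the groups, which the choice of these genes required. GSTA2 and GSTA1, described below, are near-identical paralogs, and whether their probes tell them apart was not tested.

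The genes switched off with the largest bounds included several of DNA replication and mitosis. DTL, the substrate receptor of an ubiquitin ligase that acts in S phase, had 5.06, 5.25, 5.22 and 5.07 with Dox and 7.52, 7.48, 7.35 and 7.39 with vehicle. Its bound was the largest of the 119, at least 3.97-fold lower (adjusted p = 6.4e-13). CENPE, a kinesin that moves chromosomes at the kinetochore, had 4.96, 5.01, 5.34 and 5.33 with Dox and 7.33, 7.40, 7.17 and 6.93 with vehicle, at least 3.39-fold lower (adjusted p = 4e-10). SGO1, or shugoshin, which protects cohesin at centromeres, had 5.02, 4.72, 4.83 and 4.65 with Dox and 7.12, 7.14, 7.01 and 7.05 with vehicle, at least 3.09-fold lower (adjusted p = 1.2e-12). All 3 were thus clearly expressed in vehicle-treated cells and at the background in Dox-treated ones. PIF1, a DNA helicase, NUF2, of the kinetochore complex that binds microtubules, HASPIN, a kinase of histone H3 in mitosis, and HELLS, a chromatin remodeling helicase, were at least 3.04-, 2.79-, 2.59- and 2.57-fold lower. The remaining 3 of the 10 were MKX, a homeobox factor known from tendon (at least 2.84-fold lower), C4orf46 (at least 2.76-fold) and the zinc finger protein ZNF695 (at least 2.70-fold). Of the lists of genes described below, 4 of 42 measured centromere and kinetochore proteins and 3 of 32 origin licensing and helicase genes were switched off, where 0.703% of all genes were. Switched on were 4 of 39 collagens, 4 of 75 core histones and 4 of 62 liver and gut-type secreted proteins, where 1.09% of all genes were.

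**Figure D3:**
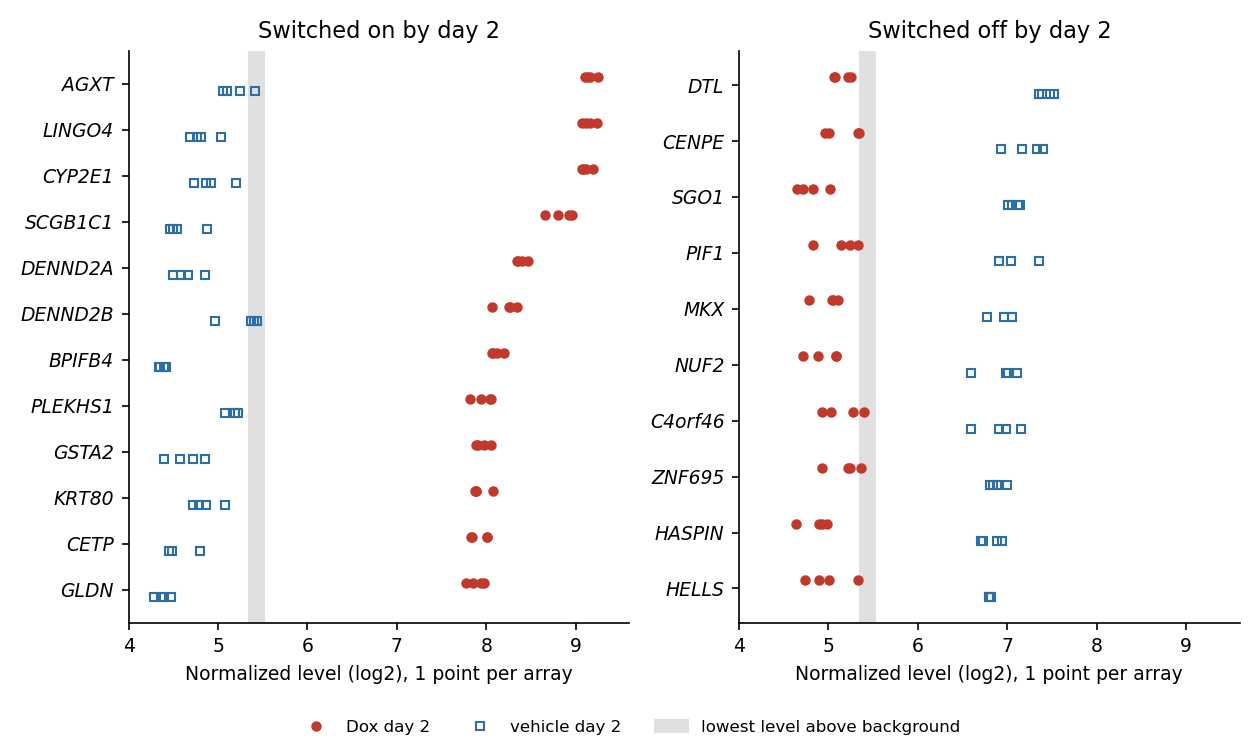
Normalized level (log2) of the 12 genes named for switching on (left) and the 10 named for switching off (right), with 1 point per array (Dox day 2 filled, vehicle day 2 open) and the range of the lowest levels above background shaded. Genes switched on lie at 7.77 to 9.25 on the Dox arrays, and genes switched off lie at 6.6 to 7.52 on the vehicle arrays.

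The day 1 arrays took no part in choosing the switched genes and show how far each had moved by 24 h. Of the 185 genes switched on by day 2, 135 (73.0%) were higher with Dox on day 1 by the same test and none was lower, where 10.7% of all genes and 20.6% of the 8025 genes above background were higher. The median level of the 185 was 5.50 with Dox and 4.84 with vehicle on day 1, and 6.20 with Dox and 4.83 with vehicle on day 2, the vehicle levels lying at the background. Above background on all 4 Dox day 1 arrays were 82 of them, 55 were so on none, and 65 met the full rule already on day 1. Of the 119 genes switched off, 76 (63.9%) were lower on day 1 and 1 was higher, where 11.5% of all genes and 22% of the 8025 were lower. Their median level was 5.47 with Dox and 6.04 with vehicle on day 1, and 5.04 with Dox and 6.02 with vehicle on day 2. On the Dox day 1 arrays 47 of the 119 were still above background on all 4, and 14 were already switched off by the full rule.

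Single genes took different courses. SCGB1C1 and CETP were above background on 0 of 4 Dox day 1 arrays and did not pass the day 1 test (log2 change 0.28, adjusted p = 0.11, and 0.21, adjusted p = 0.31), although both rose over 5-fold by day 2. KRT80 was higher on day 1 already, where it was above background on all 4 Dox arrays. PLEKHS1 was above background on all 4 vehicle day 1 arrays and on none of the vehicle day 2 arrays, so its day 2 fold is a bound and its size cannot be set against that of day 1 (log2 change 3.5). Among genes switched off, CENPE (-0.01, adjusted p = 0.98) and PIF1 (-0.08, adjusted p = 0.71) had day 1 changes near 0, while MKX was lower on day 1 (-1.22, adjusted p = 5e-08).

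**Figure D4:**
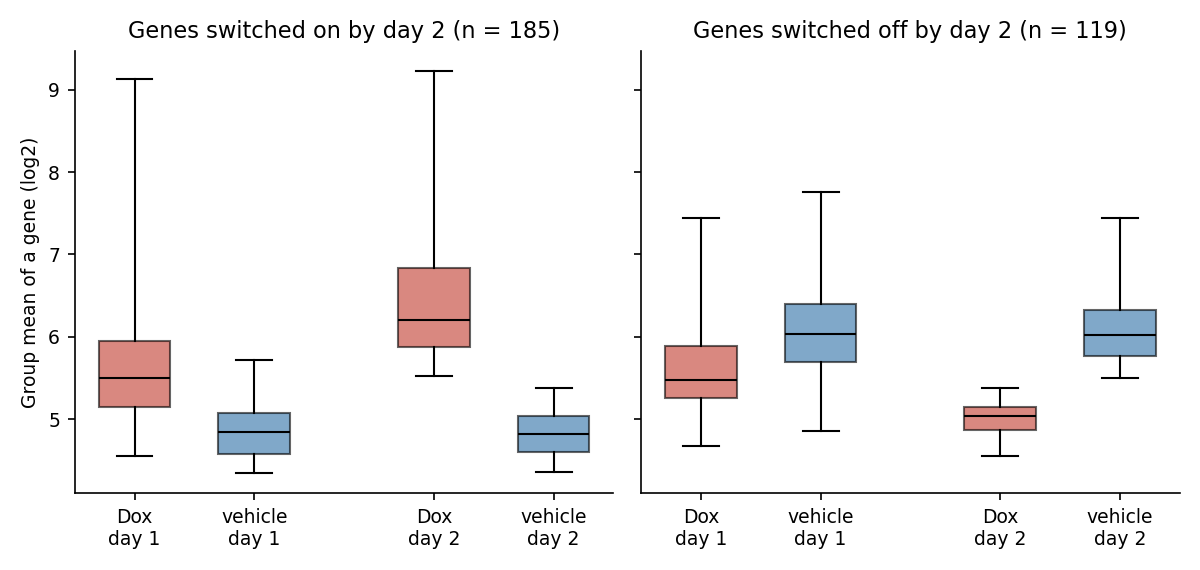
Group mean of a gene (log2, vertical axis) with Dox and with vehicle on day 1 and on day 2, for the 185 genes switched on (left) and the 119 switched off (right) by day 2, as boxes from the lower to the upper quartile of the genes with a line at the median and whiskers to the lowest and highest gene. The medians with Dox are 5.50 on day 1 and 6.20 on day 2 for genes switched on, and 5.47 and 5.04 for genes switched off.

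Large rises were also found in genes detected in every culture. Leaving out the genes that the study itself names, the largest was in GSTA1, the alpha-class glutathione transferase next to GSTA2 on chromosome 6. GSTA1 had 11.36, 11.30, 11.50 and 11.44 with Dox and 6.36, 6.0, 6.28 and 6.31 with vehicle, a 35.8-fold difference (log2 change 5.16, standard error 0.088, adjusted p = 7.1e-17). CTNS, the exporter of cystine from lysosomes, had 11.48, 11.56, 11.27 and 11.36 with Dox and 7.92, 7.78, 7.86 and 7.69 with vehicle, 12.2-fold (adjusted p = 1.1e-15). FUCA1, the lysosomal enzyme that removes fucose from glycoproteins, had 11.82, 11.84, 11.85 and 11.81 with Dox and 8.55, 8.41, 8.58 and 8.56 with vehicle, 9.89-fold (adjusted p = 1.6e-16). HSD11B2, which inactivates cortisol to cortisone, had 10.56, 10.17, 10.42 and 10.37 with Dox and 7.16, 7.14, 6.93 and 7.15 with vehicle, 9.74-fold (adjusted p = 3.6e-14). The Dox arrays of these 4 genes all lay above 10, and all their vehicle arrays below 9. GDPD5, a glycerophosphodiester phosphodiesterase, rose 12.7-fold, and SLPI, a secreted inhibitor of leukocyte proteases, rose 7.34-fold. The other 4 of the 10 largest rises were ZDHHC11, a protein palmitoyltransferase (7.0-fold), AUTS2, a nuclear regulator known from neural development (6.89-fold), ASS1, the argininosuccinate synthase of the urea cycle (6.58-fold), and COLEC12, a scavenger receptor with a collagen-like part (6.34-fold). All 10 also passed the day 1 test in the same direction, with log2 changes of 0.74 in COLEC12 to 3.16 in GSTA1.

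Many of the largest falls in genes detected in every culture, again leaving out the genes that the study itself names, were in genes of DNA replication and mitosis. The largest was in another gene. RPRML, a paralog of the cell cycle inhibitor reprimo, had 6.52, 6.73, 6.73 and 6.37 with Dox and 9.39, 9.54, 9.51 and 9.66 with vehicle, 7.66-fold lower (adjusted p = 4.1e-14). EXO1, an exonuclease of mismatch repair and DNA end resection, had 6.49, 6.67, 6.53 and 6.6 with Dox and 9.11, 9.17, 9.09 and 9.14 with vehicle, 5.87-fold lower (adjusted p = 2.6e-15). Both had fallen on day 1 as well, by 1.98 and 0.80 on the log2 scale. NEK2, a kinase that separates centrosomes, took another course. It had 7.03, 7.16, 7.32 and 7.43 with Dox and 9.91, 9.88, 9.66 and 9.63 with vehicle on day 2, 5.80-fold lower (adjusted p = 2.7e-13), while on day 1 it was higher with Dox (log2 change 0.35, adjusted p = 0.0077). KIF2C, a kinesin that depolymerizes microtubules, was 5.80-fold lower, TROAP, a protein of the spindle, 5.70-fold, CDC25C, the phosphatase that activates CDK1, 5.52-fold, and CENPA, the histone variant of centromeres, 5.44-fold. DEPDC1B was 5.38-fold lower, TOP2A, the topoisomerase of dividing cells, 5.23-fold and PBK, a mitotic kinase, 5.18-fold. The day 1 changes of these 7 genes were -0.26 to -0.48, all past the threshold.

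To describe the response by class, 121 lists of gene families and pathways were used, which hold 5297 of the measured genes. A list was considered where at least 8 members were above background, which 105 lists met. Of these, 20 were chosen for description by their share of members that were at least 2-fold higher or lower, so their shares are a description and no test of the lists was made. The shares are read against 6.64% higher and 6.26% lower among all 8025 genes above background. The fold limit matters for the dimmer lists. The shares count fitted changes. A switched member is above background in its brighter group alone, so the filter in part fixes its direction. Of the 533 higher and 502 lower genes 67 and 34 had a bound under 2-fold, and in the 20 lists such genes numbered 2 each in core histones, collagens, tetraspanins and kinesins, 1 each in interleukin and chemokine receptors, G protein-coupled receptors, spindle, origin licensing and Fanconi anemia genes, and 1 lower gene each in neuron-type genes and liver and gut-type secreted proteins. With such genes at their bound the median log2 change was 0.50 in place of 0.74 for collagens and -0.81 in place of -1.35 for kinesins, and in the other 18 lists it moved by 0.13 or less. Without background correction, which shrinks folds, the genes at least 2-fold higher were 8 core histones, 1 collagen, 1 tetraspanin, 2 nuclear receptors, 3 G protein-coupled receptors and 0 interleukin and chemokine receptors, and those at least 2-fold lower were 14 centromere and kinetochore proteins, 11 origin licensing and helicase genes, 4 Fanconi anemia genes and 6 genes of the amino acid stress response.

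**Figure D5:**
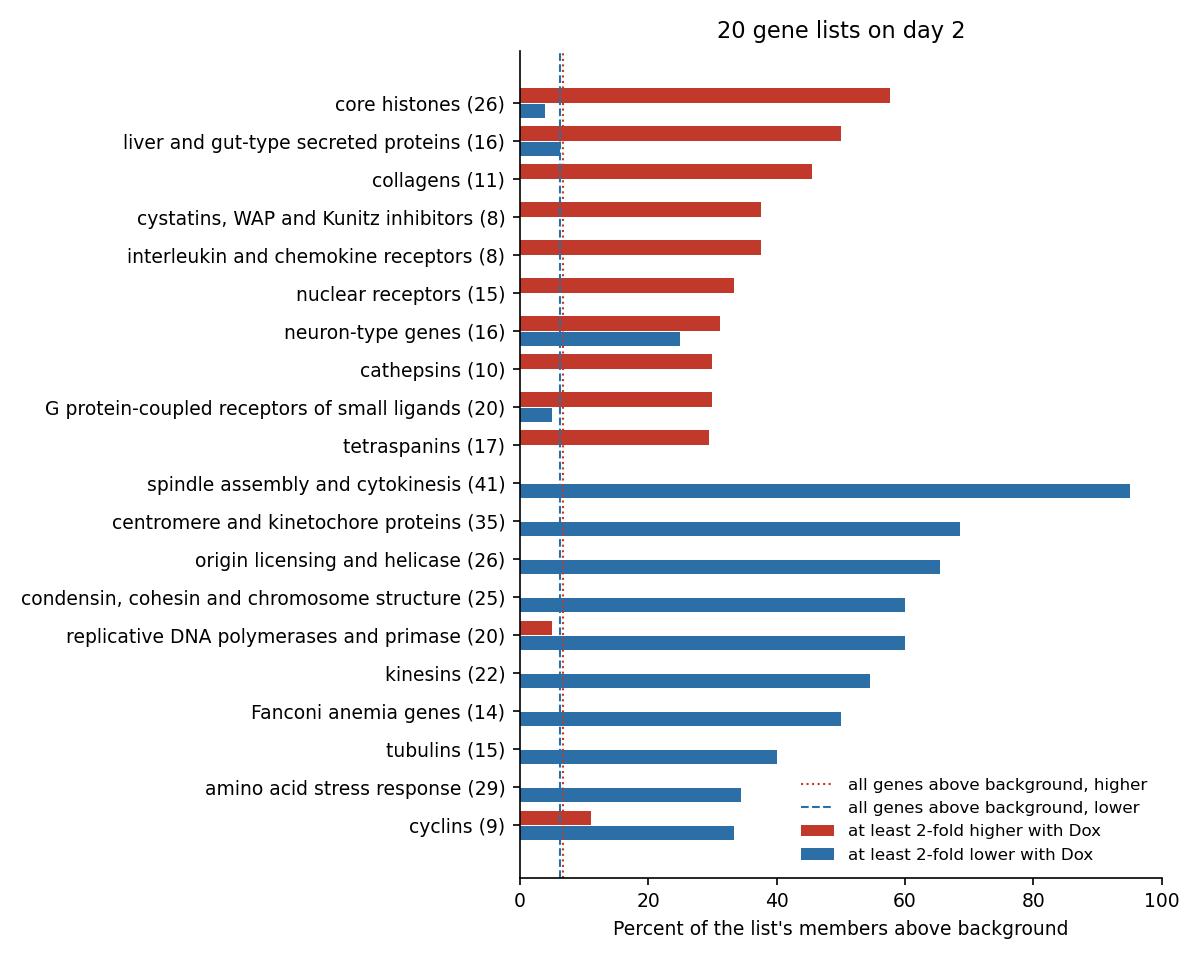
Percent of the members above background that were at least 2-fold higher with Dox (red) or at least 2-fold lower (blue) on day 2 in 20 lists, with the number of members above background in parentheses and lines at the shares of all genes above background (6.64% and 6.26%). Core histones have 57.7% of members at least 2-fold higher, and spindle assembly and cytokinesis genes have 95.1% at least 2-fold lower.

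Core histone genes, which encode the proteins around which DNA is wound, had the highest share of members at least 2-fold higher among the 105 lists. Of 75 measured, 26 were above background. Of these 18 rose, 15 of them at least 2-fold (57.7%), 4 fell and 4 did not pass, with a median change of 1.11 on the log2 scale. Of the 26, 4 were switched on and so above background with Dox alone. Over all 75 measured histone genes 21 were higher, 5 were lower and 49 did not pass (median 0.03). H4C8 had 9.16, 9.32, 9.46 and 9.18 with Dox and 6.78, 6.75, 6.65 and 6.87 with vehicle, 5.74-fold higher. H2BC4 had 7.86, 7.73, 8.06 and 7.99 with Dox and 5.50, 5.64, 5.56 and 5.46 with vehicle, 5.19-fold higher. In both the groups did not overlap. H3C10 rose 3.90-fold, and H4C5 was switched on (at least 2.23-fold). The day 1 changes were smaller, 0.47 in H4C8 and 0.53 in H2BC4, and 0.23 in H3C10 did not pass the test (adjusted p = 0.086). The other direction was taken by H2AX, the variant that is phosphorylated at DNA breaks (log2 change -1.58), and by H4C3 (-1.0), the brightest histone probe. Histone genes are near-identical paralogs, so their probes may share transcripts, which was not tested. Which histone transcripts the labelling takes up was not tested either, so these values are probe levels and not total histone RNA.

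Secreted proteins and their inhibitors rose in part. The list of liver and gut-type secreted proteins is loosely named and also holds secretions of other glands, such as PIP and MSMB. Of 16 liver and gut-type secreted proteins above background 9 rose, 8 of them at least 2-fold (50%), 3 fell and 4 did not pass, with a median of 0.86. They include PIP, SCGB1C1 and CETP, and PGC, the zymogen pepsinogen C, which had 11.84, 11.61, 11.76 and 11.64 with Dox and 7.87, 7.83, 7.87 and 7.72 with vehicle, 14.8-fold higher (adjusted p = 1.6e-16). MSMB, a protein that the prostate secretes into semen, went the other way and was switched off, with 4.62, 4.75, 4.42 and 4.46 with Dox and 5.89, 6.38, 6.24 and 6.26 with vehicle (at least 1.68-fold lower, adjusted p = 4.2e-10). APOD, a lipocalin that carries small lipids, fell by 0.51. Of the 16 members, 4 were switched on and 1 was switched off, so they were above background in 1 group alone. Over all 62 measured members of this list 13 were higher, 4 were lower and 45 did not pass (median 0.06). Of 8 cystatins, WAP and Kunitz inhibitors above background 6 rose, 3 of them at least 2-fold (37.5%), and 2 did not pass (median 0.64). Next to CST7 and SLPI these were SPINT1, a Kunitz inhibitor of membrane serine proteases (1.07), and, with a smaller change, TIMP2, an inhibitor of matrix metalloproteinases (0.68). CST7 was switched on and so above background with Dox alone. All 39 measured inhibitors of this list gave 10 higher, 0 lower and 29 that did not pass (median -0.02).

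Among genes of the matrix and of proteolysis, 7 of 11 collagens above background rose, 5 of them at least 2-fold (45.5%), 1 fell and 3 did not pass (median 0.74). Of the 11, 4 were switched on and 1 was switched off, so they were above background in 1 group alone. Over all 39 measured collagens 7 were higher, 4 were lower and 28 did not pass (median 0.07). COL20A1 had 7.96, 7.54, 7.64 and 7.86 with Dox and 4.53, 4.70, 4.91 and 5.06 with vehicle, at least 4.98-fold higher (adjusted p = 1.5e-12). COL13A1, a membrane collagen, was switched on (at least 1.66-fold), COL7A1, which anchors epithelia to the stroma, rose by 1.42 and COL4A5 of basement membranes by 1.11, while COL4A2 of the same membranes was switched off (at least 1.32-fold lower). Of the 10 cathepsins above background, which are proteases of lysosomes, 4 rose, 3 of them at least 2-fold (30.0%), 2 fell and 4 did not pass (median 0.31). CTSD (1.55), CTSH (1.16), CTSO (1.07) and CTSA (0.82) rose, and CTSV (-0.95) and CTSC (-0.82) fell.

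Receptors were mixed. Of 15 nuclear receptors above background, which are transcription factors controlled by small lipophilic ligands, 10 rose, 5 of them at least 2-fold (33.3%), 2 fell and 3 did not pass (median 0.61). NR2F1, or COUP-TFI, had 7.99, 8.01, 7.93 and 7.98 with Dox and 4.68, 4.42, 4.74 and 4.66 with vehicle, at least 5.83-fold higher (adjusted p = 2.6e-14). PPARD (1.48) and PPARG (1.46), receptors for fatty acids, and NR3C2, the mineralocorticoid receptor (1.41), rose less, and NR2C2 (-0.51) and NR2F6 (-0.39) fell. NR2F1 was switched on and so above background with Dox alone. All 40 measured nuclear receptors gave 10 higher, 3 lower and 27 that did not pass (median -0.005). Of 8 genes above background on the list of interleukin and chemokine receptors 5 rose, 3 of them at least 2-fold (37.5%), and 3 did not pass (median 0.41). Among the 5 was IL1RN, which is not a receptor but a secreted antagonist of the IL-1 receptor (at least 1.83-fold higher). The others named are that receptor, IL1R1 (1.17), IL17RC (1.15) and IL27RA (0.42), which did not pass without vehicle replicate 4 (adjusted p = 0.065). All 51 measured genes of this list gave 5 higher, 0 lower and 46 that did not pass (median 0.01), and IL1RN was switched on.

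Of 20 G protein-coupled receptors of small ligands above background 8 rose, 6 of them at least 2-fold (30.0%), 6 fell, 1 of them at least 2-fold, and 6 did not pass, so that their median was near 0. S1PR3, a receptor for sphingosine-1-phosphate, had 10.82, 10.86, 10.59 and 10.88 with Dox and 8.18, 8.09, 7.96 and 8.02 with vehicle, 6.61-fold higher (adjusted p = 1.2e-14). GPRC5C, an orphan receptor (2.36), and PTGFR, the receptor of prostaglandin F2α (1.36), rose too. SLC52A2 (1.07), on the list by an older name, is a riboflavin transporter. LPAR3, a receptor of lysophosphatidic acid (-1.10), and the orphan GPR160 (-0.97) fell. Of 17 tetraspanins above background, 4-pass proteins that organize other membrane proteins, 11 rose, 5 of them at least 2-fold (29.4%), 1 fell and 5 did not pass (median 0.60). CD82 rose by 2.49, TSPAN15 by 1.26 and TSPAN31 by 1.15, TSPAN32 was switched on (at least 1.91-fold), and CD81 was lower by 0.21 (adjusted p = 0.032). CD81 no longer passed without Dox replicate 3 (adjusted p = 0.10), Dox replicate 4 (0.082) or vehicle replicate 1 (0.13). All 30 measured tetraspanins gave 12 higher, 2 lower and 16 that did not pass (median 0.11), and 2 were switched on. Of 16 neuron-type genes above background 5 rose, all at least 2-fold, 7 fell, 4 of them at least 2-fold, and 4 did not pass (median -0.14). NPPC, which encodes C-type natriuretic peptide, had 10.03, 10.25, 10.19 and 10.06 with Dox and 6.24, 6.01, 6.04 and 6.25 with vehicle, 16.0-fold higher (adjusted p = 2.6e-14), next to LINGO4. CBLN2, a secreted organizer of synapses (-2.29), the neurexin relative CNTNAP2 (switched off, at least 1.67-fold), the neurosecretory protein VGF (-1.20) and the adhesion protein NLGN1 (-1.01) fell.

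The largest class of falls was that of cell division. All 41 genes of spindle assembly and cytokinesis above background fell, 39 of them at least 2-fold (95.1%), with a median of -2.0 on the log2 scale. HMMR, which anchors spindle microtubules, had 7.82, 7.77, 7.61 and 7.96 with Dox and 10.11, 10.20, 10.07 and 10.18 with vehicle, 5.10-fold lower (adjusted p = 4.4e-14). ASPM, a protein of spindle poles, fell by 2.35. The day 1 changes of HMMR (-0.18, adjusted p = 0.094) and ASPM (-0.14, adjusted p = 0.55) did not pass the test. Of 35 centromere and kinetochore proteins above background 30 fell, 24 of them at least 2-fold (68.6%), and 5 did not pass (median -1.56). Beside CENPA these include the checkpoint kinase TTK (-2.33), CENPK (-2.27) and HJURP, the chaperone that deposits CENPA (-2.23). Of 22 kinesins, the motors of microtubules, 16 fell, 12 of them at least 2-fold (54.5%), 5 did not pass (median -1.35), and KIF1A, a motor of axonal transport, was higher (0.35). KIF20A (-2.24), KIFC1 (-2.22) and KIF11 (-2.20) were the next after KIF2C. All 37 measured kinesins gave 3 higher, 17 lower and 17 that did not pass (median -0.11), and 2 were switched off. Of 15 tubulins 13 fell, 6 of them at least 2-fold (40%), 1 did not pass (median -0.89), and TUBG2, a gamma-tubulin (0.57), was higher. TUBA1C fell by 1.53, TUBG1 by 1.28, TUBB6 by 1.25 and TUBB4B by 1.23.

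Genes of DNA replication, chromosome structure and crosslink repair fell alongside, unlike most core histones above background. Of 26 origin licensing and helicase genes above background 24 fell, 17 of them at least 2-fold (65.4%), and 2 did not pass (median -1.34). CDC45, a part of the replicative helicase, had 8.42, 8.37, 8.41 and 8.32 with Dox and 10.78, 10.73, 10.72 and 10.72 with vehicle, 5.12-fold lower (adjusted p = 1.8e-15), and had fallen by 0.79 on day 1. MCM10 (-2.19), MCM2 (-2.09) and GINS2 (-1.84) followed. Of 20 replicative DNA polymerase and primase genes 18 fell, 12 of them at least 2-fold (60.0%), with a median of -1.23. RFC3 (-2.13), of the clamp loader, PRIM1 (-1.90), the catalytic primase, and the polymerase subunits POLE2 (-1.82) and POLA2 (-1.51) fell, while the small polymerase subunits POLD4 (1.18) and POLE4 (0.70) rose. Of 25 genes of condensin, cohesin and chromosome structure 18 fell, 15 of them at least 2-fold (60.0%), and 6 did not pass (median -1.28). TOP2A, NCAPG (-2.35), CDCA5 (-2.04) and KIF4A (-2.03) led these, and SMC4, a condensin subunit, was higher by its brightest probe (0.30, adjusted p = 0.0028) and lower by a second one (-0.63, adjusted p = 0.0016). All 34 measured genes of this list gave 1 higher, 22 lower and 11 that did not pass (median -0.68), and 2 were switched off. Of 14 Fanconi anemia genes, which repair DNA crosslinks, 10 fell, 7 of them at least 2-fold (50%), 3 did not pass (median -0.94) and FAN1, a nuclease, was higher (0.37). RAD51AP1 (-2.32), FANCI (-2.12), BRCA1 (-1.95) and UBE2T (-1.82) fell.

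Among cyclins, the regulatory subunits of cyclin-dependent kinases, 5 of 9 above background fell, 3 of them at least 2-fold (33.3%), 3 rose and 1 did not pass (median -0.34). CCNA2 (-2.21), CCNB2 (-1.98) and CCNB1 (-1.91), of S phase and mitosis, fell the most and CCND1 by less (-0.41). CCND3 had 12.42, 12.45, 12.34 and 12.26 with Dox and 10.92, 11.02, 11.03 and 10.93 with vehicle, 2.63-fold higher (adjusted p = 1.7e-11), and CCNG2 was higher by 0.45. Of 29 genes of the amino acid stress response above background, most of them targets of ATF4, 26 fell, 10 of them at least 2-fold (34.5%), 1 was higher and 2 did not pass (median -0.80). TRIB3, a pseudokinase that this response induces, had 9.01, 8.90, 8.98 and 9.02 with Dox and 11.19, 11.12, 10.94 and 11.12 with vehicle, 4.32-fold lower (adjusted p = 5.1e-14). The transcription factor ATF3 (-1.97), the amino acid carrier SLC7A5 (-1.78) and asparagine synthetase, ASNS (-1.58), were lower with Dox as well. In these genes and TRIB3 the vehicle level was higher on day 2 than on day 1. The vehicle means on days 1 and 2 were 9.92 and 11.09 for TRIB3 and 6.98 and 7.73 for ATF3. They were 9.83 and 10.28 for SLC7A5 and 10.996 and 12.114 for ASNS. The Dox means, in the same order, were 9.31 and 8.98, 6.05 and 5.76, 9.16 and 8.498, and 10.57 and 10.53. A test of the change between days within a treatment is not reported here. The change with Dox on day 2 minus that on day 1 was tested by limma's interaction test. It was -1.50 in TRIB3 (adjusted p = 3.5e-09), -1.04 in ATF3 (2.6e-05), -1.11 in SLC7A5 (2.3e-06) and -1.15 in ASNS (7.6e-08). These genes were named for their day 2 change, so the sign of the difference is in part fixed by the choice. CBS, of the transsulfuration pathway, was higher by 0.18, close to the threshold (adjusted p = 0.048), and did not pass without Dox replicate 1, 2 or 4 or vehicle replicate 1, 2 or 3 (adjusted p = 0.064 to 0.14).

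Promoter sequences, 300 bases from 250 before to 50 after the gene start in RefSeq (GRCh38.p14), were searched on both strands for letters known from cell cycle promoters and from Runx sites. The CCAAT box (CCAAT) was in 79.4% of 34 promoters of the spindle assembly and cytokinesis list, in 80.0% of 25 core histone promoters and in 51.6% of 409 promoters of genes at least 2-fold lower, against 38.3% of 6725 promoters of genes above background and 35.7% of all 27305. The letters TTTGAA, known as the cell cycle genes homology region, were in 67.6% of the spindle promoters, in 24.0% of those of core histones and in 24.4% of those of genes at least 2-fold lower, against 9.0% of genes above background and 15.4% of all. In the promoters of origin licensing and helicase genes TTTGAA was in 0 of 22, and the E2F letters TTTCCCGC or TTTGGCGC, either strand, were in 36.4%, against 3.93% of genes above background and 2.31% of all promoters. The Runx core letters ACCACA were in 10.5% of 421 promoters of genes at least 2-fold higher, 8.07% of those at least 2-fold lower, 11.7% of 137 promoters of genes switched on, 8.86% of genes above background and 13.1% of all. None of the 10 promoters found for the 12 genes named for switching on held them. A match describes the letters only. The promoters of 3 genes that fell and held both motifs, and of 2 histone genes that rose and held the CCAAT box, are printed to show where these letters lie, each 5′ to 3′ on the strand of the gene with the CCAAT box and the homology region letters, on either strand, in capitals, which run together where matches overlap or touch.
HMMR, chr5:163460382-163460681, plus strand: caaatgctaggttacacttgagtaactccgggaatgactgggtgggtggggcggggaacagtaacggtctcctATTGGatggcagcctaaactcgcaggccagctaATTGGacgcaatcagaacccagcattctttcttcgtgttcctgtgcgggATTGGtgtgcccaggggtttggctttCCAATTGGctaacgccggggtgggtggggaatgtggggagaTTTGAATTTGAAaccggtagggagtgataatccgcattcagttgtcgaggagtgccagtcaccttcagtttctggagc
CENPA, chr2:26785806-26786105, plus strand: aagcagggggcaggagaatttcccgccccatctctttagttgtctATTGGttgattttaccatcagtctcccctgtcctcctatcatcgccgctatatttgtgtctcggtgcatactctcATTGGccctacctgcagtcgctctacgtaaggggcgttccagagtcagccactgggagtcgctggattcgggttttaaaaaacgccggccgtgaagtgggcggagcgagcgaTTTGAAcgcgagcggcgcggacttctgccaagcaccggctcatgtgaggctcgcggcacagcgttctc
TOP2A, chr17:40417847-40418146, minus strand: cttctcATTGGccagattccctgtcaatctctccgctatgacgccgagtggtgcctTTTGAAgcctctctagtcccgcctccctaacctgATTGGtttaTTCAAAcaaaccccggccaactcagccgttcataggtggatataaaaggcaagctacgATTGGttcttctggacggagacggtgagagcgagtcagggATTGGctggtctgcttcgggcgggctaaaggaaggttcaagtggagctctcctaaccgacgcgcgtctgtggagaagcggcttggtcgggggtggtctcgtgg
H2BC4, chr6:26123877-26124176, minus strand: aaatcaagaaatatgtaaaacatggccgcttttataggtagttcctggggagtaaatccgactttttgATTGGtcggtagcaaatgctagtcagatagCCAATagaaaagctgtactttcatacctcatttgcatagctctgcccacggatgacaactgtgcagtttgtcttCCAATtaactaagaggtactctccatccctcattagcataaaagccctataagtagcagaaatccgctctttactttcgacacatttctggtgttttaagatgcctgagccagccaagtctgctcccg
H3C10, chr6:27809801-27810100, plus strand: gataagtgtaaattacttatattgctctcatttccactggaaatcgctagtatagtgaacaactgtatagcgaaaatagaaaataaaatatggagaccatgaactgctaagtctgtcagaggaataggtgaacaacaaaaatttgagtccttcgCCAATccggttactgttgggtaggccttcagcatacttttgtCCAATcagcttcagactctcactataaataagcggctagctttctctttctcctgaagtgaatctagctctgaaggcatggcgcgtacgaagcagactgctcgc

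In 14 of the 105 lists no member above background changed at least 2-fold in either direction. These included 73 mitochondrial ribosomal proteins (13 higher, 20 lower, median -0.07), 27 complex I subunits (11 higher, 2 lower, median 0.15), 47 subunits of complexes II to V of the respiratory chain (17 higher, 2 lower, median 0.13), 37 proteasome subunits (4 higher, 9 lower, median -0.02) and 27 genes of the citrate cycle (8 higher, 8 lower, median 0.03). The genes of rRNA processing (59, of which 39 lower and 2 higher, median -0.38), aminoacyl-tRNA synthetases (30, of which 17 lower and 2 higher, median -0.24) and mitochondrial import (27, of which 14 lower and 3 higher, median -0.26) held many small falls.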

How the data were processed

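Total RNA of 16 cultures (4 groups of 4) was labelled with biotin and hybridized to Illumina human ref 8 version 3 BeadChips. The deposited signals are linear probe intensity values from BeadStudio, neither background-corrected nor scaled between arrays by the authors. The deposited detection p-value is the share of 664 negative controls brighter than the probe. The deposited log2 table, made by the authors with model-based background correction and quantile normalization, has the same median, 4.67, on every array and ranks probes as the signals do. It served as an alternative. Arrays of 1 color have no direction of a ratio.

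Signals of 24526 probes were corrected with limma 3.58.1 (R 4.3.3, statmod 1.5.0) by the normal-exponential model, with negative controls inferred from detection p-values and an offset of 16, quantile normalized and put on the log2 scale. Group means were fitted to all 16 arrays with lmFit and eBayes, and Dox day 2 minus vehicle day 2 was tested (two-sided, Benjamini-Hochberg adjustment over all probes, threshold 0.05). Platform annotation named 21834 probes with 1 gene, 0 with several and 2692 with none. Each of 16922 genes stands by its probe of highest mean. The number of arrays limits the precision. As a check of the code, data with independent normal noise were simulated (24526 probes), and 99 of 100 probes changed by a log2 of 1 were recovered. Far fewer probes were changed there than differed in the real data, so the share of real changes found was not measured. The figure is for that size alone, and 1322 of the 2821 genes that were higher changed by less than 0.5.

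Genes named are the 12 genes switched on and 10 switched off of largest bound, the 10 largest rises and falls detected on all 8 arrays (each called, without overlap, and not named by the study), up to 4 leading members of each list described with up to 2 of the other direction, and 6 checks, 142 in all. For 2 of these a second probe above background disagreed (SMC4, GAPDH). Members, lists and rules were chosen with earlier results of these data known. The alternatives tried were other background corrections, normalizations, detection rules, probe choices, subsets of arrays and a replicate block. Promoters come from RefSeq.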

Additional observations from a re-analysis of the deposited data

Results flagged for a closer look

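Among the named genes, 14 of 284 groups of 4 arrays (4.93%) held an array far from the other 3, where chance gives about 1 in 20. Among genes that rose these were KRT80 on Dox replicate 1 (8.08, others 7.87 to 7.89), GDPD5 on Dox replicate 3 (9.47, others 9.69 to 9.72) and on vehicle replicate 3 (5.59, others 6.10 to 6.15), and IL1R1 on Dox replicate 4 (6.90, others 6.78 to 6.79). Vehicle arrays stood apart for DENND2B (replicate 3, 4.97, others 5.37 to 5.44), FUCA1 (replicate 2, 8.41, others 8.55 to 8.58), HSD11B2 (replicate 3, 6.93, others 7.14 to 7.16), PIP (replicate 1, 6.12, others 6.50 to 6.58) and CCNG2 (replicate 1, 7.57, others 7.21 to 7.27). Among genes that fell, Dox arrays stood apart for KIF2C (replicate 4, 6.66, others 6.34 to 6.36), KIF11 (replicate 2, 5.53, others 5.81 to 5.86) and SLC7A5 (replicate 1, 8.72, others 8.42 to 8.43), and vehicle arrays for CDC45 (replicate 1, 10.78, others 10.72 to 10.73) and MCM2 (replicate 4, 9.14, others 8.88 to 8.90).

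For 21 of the 22 genes named for switching, the change with Dox differed between day 2 and day 1 by limma's interaction test. These genes were chosen for their day 2 change, so the sign of the difference is in part fixed by the choice. One group of each gene was not above background on day 2, and for SCGB1C1 and CETP neither group was on day 1, so the values are differences of fitted changes that the background cuts off and not bounds on expression. The change on day 2 minus that on day 1, on the log2 scale, was 0.98 in AGXT, 2.06 in LINGO4, 2.94 in CYP2E1, 3.96 in SCGB1C1, 0.70 in DENND2A, 0.66 in DENND2B, 1.64 in BPIFB4, 1.5 in GSTA2, 3.07 in CETP and 2.69 in GLDN. PLEKHS1, above background on vehicle arrays on day 1 alone, had -0.71, and KRT80 did not pass. Among genes switched off the difference was -1.33 in DTL, -2.04 in CENPE, -1.70 in SGO1, -1.84 in PIF1, -0.73 in MKX, -1.67 in NUF2, -0.85 in C4orf46, -1.47 in ZNF695, -1.33 in HASPIN and -1.14 in HELLS.

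Of the 2692 probes without a gene name, which the report does not use, 18 were switched on and 11 switched off by day 2, and 52 were at least 2-fold higher and 40 at least 2-fold lower.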

How the results depend on the processing

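Counts of genes past the test changed little under the alternatives, while counts at a fold limit depended on the background correction. Against 544 genes at least 2-fold higher and 505 lower, there were 228 and 226 without background correction, and 343 higher with an offset of 50 (342 lower). Against 185 genes switched on and 119 switched off, there were 337 and 282 when 3 of 4 arrays against 1 of 4 were enough, and 65 switched off (146 on) at a detection p under 0.05. Leaving out arrays, singly or replicate 1 of every group (an alternative chosen after seeing the data), gave 2649 to 2746 genes higher, 2648 to 2769 lower, 533 to 552 at least 2-fold higher, 501 to 516 at least 2-fold lower, 190 to 209 switched on and 124 to 197 switched off. The 197 came without replicate 1 of every group, where 3 arrays are enough. No value changed direction under any alternative run. Of 2553 values of named genes 19 no longer passed the test, all of CBS, CD81, SMC4 and IL27RA, and of 360 list counts 13 moved, all without background correction or with an offset of 50. The labels do not say whether same-numbered cultures of different groups were handled together. Replicate 1 was the lowest array in all 4 groups for 239 of 8577 genes, and the cause was not tested. Same-numbered Dox and vehicle arrays deviated with correlations of 0.106, -0.0018, -0.0066 and 0.0020, and the replicate block gave 2789 genes higher and 2814 lower, with 544 and 505 at least 2-fold. No other scaling moved the median of all probes by 0.1.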

Other observations

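The lists below were picked after their values were seen and are given as values. Over all 8025 genes above background 30.4% were higher and 31.4% lower. Of 23 interferon response genes above background 17 were higher with Dox, 6 of them at least 2-fold, and 2 were lower, with a median of 0.64 on the log2 scale. Switched on, and so above background with Dox alone, were 3 of the 23. All 46 measured genes of this list gave 20 higher, 2 lower and 24 that did not pass (median 0.12). GBP2, a guanylate binding protein of cell defense, was switched on (at least 5.01-fold), as was IFIT1 (at least 2.64-fold), and IFI6 was higher by 1.63 on the log2 scale, while UBE2L6, the enzyme that conjugates ISG15 (-0.80), and IFITM1 (-0.69) were lower. Of 39 lysosome genes 24 were higher and 3 lower (median 0.37). Next to FUCA1 these include NEU1, a sialidase (1.92), and CTSD (1.55), while the cholesterol exporter NPC1 was lower (-0.74). The vacuolar proton pump, which acidifies lysosomes, had 14 of 19 subunits higher and 1 lower (median 0.38), led by ATP6V0D1 (1.68). Of 41 genes of fatty acid oxidation and peroxisomes 27 were higher and 7 lower (median 0.44), led by ACOX2 (1.93), ACAA1 (1.73) and ACAD11 (1.42).

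Genes of RNA processing and nuclear transport were lower by small amounts. Of 72 splicing factors 48 were lower, 5 of them at least 2-fold, and 3 were higher (median -0.34). DDX39A (-1.04) and HNRNPC (-1.03) fell, and SNRPN, an imprinted gene best known from neurons, was higher by 1.57. Of 25 nuclear pore genes 18 were lower and 1 higher (median -0.72), led by NDC1 and NUP93 (both -1.25), and of 26 importins and exportins 19 were lower and 1 higher (median -0.56), led by KPNA2 (-1.31). Of 7 S100 proteins above background, small calcium binders, 5 were at least 2-fold higher, 1 was at least 2-fold lower and 1 did not pass (median 1.51). These are fitted changes, and 1 of the 5 had a bound under 2-fold. Switched on, and so above background with Dox alone, were 2 of the 7. All 20 measured S100 proteins gave 7 higher, 2 lower and 11 that did not pass (median 0.17). Among all 8025 genes 6.64% were at least 2-fold higher and 6.26% lower. S100A4 was switched on (at least 13-fold) and S100A13 was higher (log2 change 2.16), while S100P was lower (-2.33).

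The genes HBA2 and HBB, which encode hemoglobin chains, had the widest spread within groups of all genes above background, with SDs of 1.90 and 1.88 on the log2 scale, against 0.564 for the next gene and a median of 0.117. HBA2 had 8.66, 8.13, 5.51 and 6.56 on the Dox day 2 arrays and 4.83, 8.13, 10.21 and 8.65 on the vehicle day 2 arrays. HBB had 9.73, 8.86, 6.19 and 7.57 on the Dox day 2 arrays and 5.50, 8.43, 10.78 and 8.58 on the vehicle day 2 arrays, and its change did not pass the test (-0.23, adjusted p = 0.92). Across the 16 arrays both moved together (Pearson r = 0.978, as a description). No other gene with such a spread was found, and its origin was not tested.

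Replicate 1 was the lowest array in all 4 groups for 239 genes, in 96 of them by at least 1.5-fold, and the highest in all 4 groups for 96 genes. TMEM17, a protein of the ciliary transition zone, had 9.29 on Dox day 2 replicate 1 (others 10.42 to 10.53) and 9.32 on vehicle day 2 replicate 1 (others 10.30 to 10.44).

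Of 625 called genes with a second probe above background, that probe passed the test in 493, in the opposite direction in 13.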
